A study of Mus musculus with 61 samples.

Results

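H3K27ac, acetylation of lysine 27 of histone H3, was profiled by ChIP-seq in nuclei of the oligodendrocyte lineage, sorted from mouse brain with an antibody to OLIG2, and compared between wild-type mice (WT) and mice lacking a microglial enhancer of Sall1 (enhancer knockout, EKO). The 4 region lists of these nuclei, 2 WT and 2 EKO, were merged wherever called regions overlapped by 1 bp, which gave 59349 merged regions, and a region was counted for a genotype when both libraries of that genotype listed it. By this rule 29158 regions belonged to at least 1 genotype, 24282 to WT, 25646 to EKO and 20770 to both. The 12 lists of OLIG2, NEUN and PU.1 nuclei together merged into 158940 regions. The series holds 61 samples of sorted mouse brain cells and nuclei, input controls included.

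The labels give the strain of the OLIG2, NEUN and PU.1 nuclei libraries used here as C57/Bl6, and the EKO mice carried a homozygous germline deletion made with CRISPR/Cas9, so the deletion was present in every cell of the animal and not in microglia alone. All animals were young adult males, neither the labels nor the methods name another allele or an agent for these groups, and nothing in the labels says that the libraries of a genotype came from separate animals. The p-values below therefore measure the spread between these libraries, which may be technical. Samples are named WT replicate 1 and 2 and EKO replicate 1 and 2, and the values of a region or gene are given in that order.

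Oligodendrocytes wrap axons in myelin and arise from precursor cells under the control of transcription factors such as OLIG2, SOX10 and MYRF. H3K27ac marks active promoters and enhancers, and long acetylated stretches often lie over the genes that define a cell type. SALL1 is a zinc-finger transcription factor that in the brain is known mainly for setting the identity of microglia, and the deleted enhancer lies far upstream of its gene.

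The sequences under regions on which the results turn are printed first: the promoters of Olig2, the factor used for the sort, of Mog, a myelin membrane protein gene, and of Sall1, each from 250 bases before to 50 after the start, and the central 300 bases of the 2 highest upstream regions of the Sall1 locus. They were taken from RefSeq, build GRCm38.p6, which is the mm10 assembly to which the authors mapped. The promoters lie at chr16:91225300-91225599 (plus strand), chr17:37023349-37023648 (minus strand) and chr8:89044113-89044412 (minus strand). The upstream stretches lie at chr8:89142769-89143068 and chr8:89241628-89241927, both printed on the plus strand, in intergenic sequence. Capitals mark matches on either strand to the E-box words CAGCTG and CAGATG or to the SOX words ACAAAG and ACAATG.
Olig2 promoter: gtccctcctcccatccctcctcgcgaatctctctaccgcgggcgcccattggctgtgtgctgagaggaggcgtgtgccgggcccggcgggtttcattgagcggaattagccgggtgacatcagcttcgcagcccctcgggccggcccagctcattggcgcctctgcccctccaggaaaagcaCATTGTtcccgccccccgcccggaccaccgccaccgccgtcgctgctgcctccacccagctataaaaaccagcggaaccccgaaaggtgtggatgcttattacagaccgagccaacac
Mog promoter: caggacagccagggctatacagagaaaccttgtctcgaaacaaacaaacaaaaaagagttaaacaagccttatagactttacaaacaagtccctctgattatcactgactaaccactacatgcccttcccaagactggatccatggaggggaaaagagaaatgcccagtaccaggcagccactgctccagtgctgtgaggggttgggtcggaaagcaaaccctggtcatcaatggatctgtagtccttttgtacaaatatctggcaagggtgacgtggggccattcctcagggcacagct
Sall1 promoter: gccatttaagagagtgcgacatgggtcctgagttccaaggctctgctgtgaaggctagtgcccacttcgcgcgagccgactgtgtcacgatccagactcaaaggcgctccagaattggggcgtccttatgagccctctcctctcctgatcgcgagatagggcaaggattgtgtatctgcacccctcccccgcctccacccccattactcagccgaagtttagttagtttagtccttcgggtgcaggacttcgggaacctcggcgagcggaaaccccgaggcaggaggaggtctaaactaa
Sall1 region 99 kb upstream: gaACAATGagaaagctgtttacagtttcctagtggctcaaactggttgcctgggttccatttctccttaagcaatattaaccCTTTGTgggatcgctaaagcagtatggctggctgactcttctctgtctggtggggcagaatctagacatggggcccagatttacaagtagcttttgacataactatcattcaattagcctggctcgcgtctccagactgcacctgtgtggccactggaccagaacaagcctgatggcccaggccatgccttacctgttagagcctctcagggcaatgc
Sall1 region 198 kb upstream: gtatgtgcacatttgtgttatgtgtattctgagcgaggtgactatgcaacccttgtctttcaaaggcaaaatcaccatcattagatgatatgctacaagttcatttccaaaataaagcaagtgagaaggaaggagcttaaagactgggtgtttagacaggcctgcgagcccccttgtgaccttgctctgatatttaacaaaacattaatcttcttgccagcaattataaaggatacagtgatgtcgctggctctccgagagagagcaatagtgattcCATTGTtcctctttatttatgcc
ACAATG or its complement was found once in the Olig2 promoter and once in each upstream stretch, and ACAAAG once in the stretch at 99 kb. The Mog and Sall1 promoters held none of the 4 words, and no marked words overlapped. Among 32851 RefSeq promoters of the same length, CAGCTG occurred in 16.3%, CAGATG in 17.2%, ACAAAG in 18.7% and ACAATG in 12.6%. In the central 300 bases of 20766 regions listed in every library the shares were 18.9%, 20.2%, 25.7% and 16.0%. A match is only a run of letters, and its absence says nothing about binding of a factor.

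The authors called regions in each library against an input control, with a fold over input of at least about 4, and gave for each region its tags per 10000000 tags of the library (normalized tags). The 4 lists held 36633, 44206, 39784 and 35802 regions that covered 76.7, 76.2, 81.1 and 76.2 Mb and took 55.6%, 52.4%, 59.0% and 62.6% of each library's tags. Nearly all listed values were whole multiples, within 0.05 normalized tags, of a step that differed between libraries. If that step is 1 tag, the depths were 9582300, 26849300, 7978080 and 10189900 tags, so WT replicate 2 was the deepest library. It also had the most regions and the lowest median, 21.2 normalized tags per region against 31.3 to 39.3 in the others.

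Most of the tags in called regions of these nuclei lay in regions shared by both genotypes. The 20770 regions listed in all 4 libraries were 35.0% of the merged regions and held 94.9% to 96.2% of the tags in called regions. They were broad, with a median width of 2414 bp, and 33.5% lay within 1 kb of the start site of a protein-coding gene. Another 25154 regions, 42.4% of the merged set, were listed by 1 library and held 0.727% to 2.38% of its library's tags in regions. WT replicate 2 alone listed 10626 of these.

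**Figure D1:**
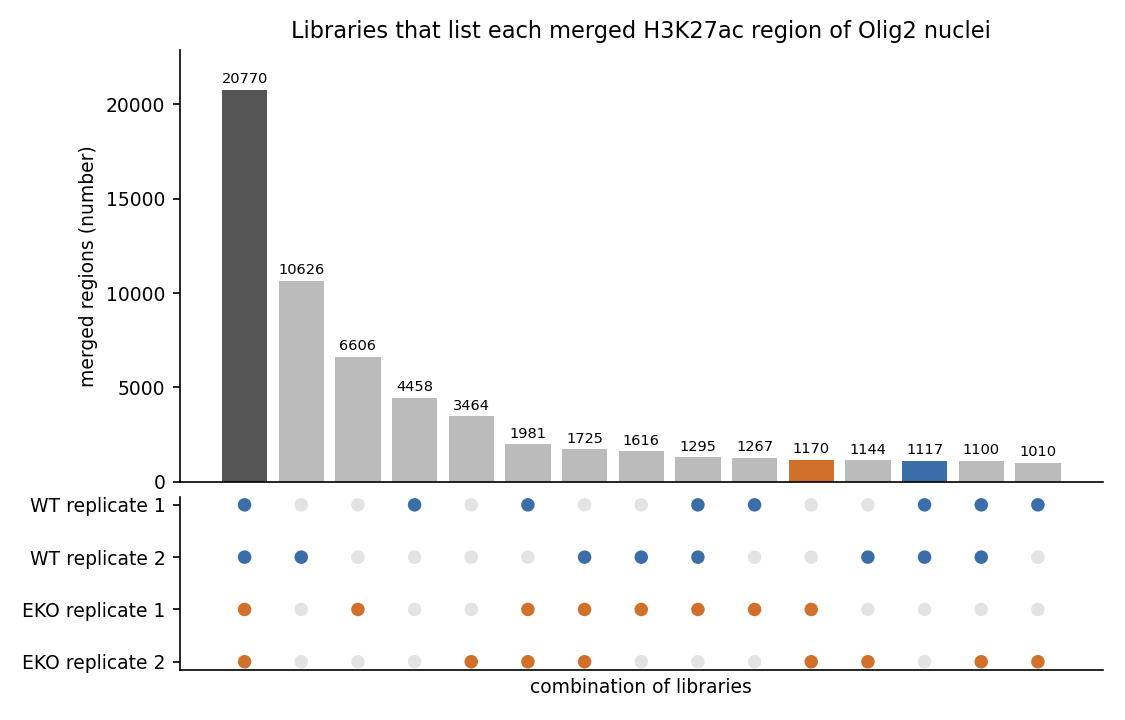
Number of merged regions (vertical axis) for each combination of the 4 libraries that list them, with filled dots below each bar naming the libraries. The tallest bar is the 20770 regions in all 4 libraries, and the WT pair alone (1117) and the EKO pair alone (1170) are among the shortest.

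Of the regions of WT, 85.5% were also regions of EKO, and of those of EKO, 81.0% were also regions of WT. Regions of the WT pair that neither EKO library listed numbered 1117, or 4.60% of WT regions, and regions of the EKO pair that neither WT library listed numbered 1170, or 4.56% of EKO regions. Single lists overlapped to a similar extent within and between genotypes. The mean of the 2 shares of a pair was 67.9% for the WT replicates, 74.6% for the EKO replicates and 67.5% to 75.7% for the 4 pairs of different genotype. With WT replicate 1 left out the share of WT regions found in EKO was 57.1%, and with WT replicate 2 left out it was 68.9%, since a genotype then counted every region of its other library.

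By the rule of both libraries, 3512 regions belonged to WT and not EKO, and 4876 to EKO and not WT. The part of these that neither library of the other genotype listed, 1117 WT-only and 1170 EKO-only regions, were weak and mostly lay inside genes. Their median was 14.0 normalized tags in the WT pair and 15.3 in the EKO pair, against 74.3 for regions in all 4 libraries, and their median widths were 855 and 884 bp. Of the WT-only regions 8.86% lay near a start site and 66.2% elsewhere in a gene, and of the EKO-only regions 8.97% and 66.1%. Regions listed by 1 library, with a median of 11.3 normalized tags, had a similar share elsewhere in a gene, 68.0%. Among regions in all 4 libraries that share was 45.7%. The WT-only and EKO-only regions held 0.312% to 0.345% of the called tags of each library that listed them.

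The 5 WT-only regions with the highest mean tags lay in an intron of Npsr1, a neuropeptide receptor gene (16.7 and 126 normalized tags in the WT replicates), 187 kb from the start of Olfr1324, an olfactory receptor gene (9.39 and 124), 180 kb from that of Icos, a T cell costimulator gene (65.7 and 54.7), in an intron of Magi2, a synaptic scaffold gene (71.0 and 24.6), and 16.1 kb from the start of Gpr141 (59.5 and 32.8). Of these 5, only those at Icos and Gpr141 had WT replicates within 2-fold of each other. The 5 highest EKO-only regions lay 55.7 kb from the start of Rgmb, a BMP co-receptor gene (75.2 and 93.2), in an intron of Umad1 and 74.9 kb from the start of Glcci1 (87.7 and 78.5), 54.2 kb from that of Gm21833 (70.2 and 78.5), in an intron of Rimklb (38.9 and 79.5) and over an exon of Camk2g, a calmodulin kinase subunit gene (15.0 and 90.3). A region that a library does not list did not meet the caller's limits, which is not the same as holding no tags.

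The 10 highest regions were wide domains, and after scaling of the libraries their differences between genotypes were small. A domain over exons of Cdk19, chr10:40404234-40527406, held 24436, 26408, 26696 and 30218 normalized tags, and its scaled log2 difference, EKO minus WT, was -0.03 with an SE of 0.35. The domain at the start of Zeb2, a transcription factor gene needed for myelination, at chr2:44993568-45119709, held 18834, 20839, 20936 and 24397, with a difference of -0.00.

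A domain over exons of Gnao1 (chr8:93828628-93943592) held 15170, 15515, 16414 and 17459, and 1 over the starts of Sox10 and Pick1 (chr15:79147633-79230361) held 12940, 13142, 15416 and 16453. A domain over exons of Ctif held 16061, 12976, 15063 and 16042, with WT on either side of EKO before scaling. Another 4 of the 10 lay over exons of Rnf220 and over the starts of Ppp1r16b, Urm1 and Gna12. As deposited, EKO lay above WT without overlap in 8 of the 10, and overlapped it at Ctif and Ppp1r16b. The share of all regions that separated in this way as deposited is not given here, so the 8 are not a result about these domains. The scaled differences of the 10 ran from -0.09 to 0.12. As deposited, the median region listed everywhere was 0.20 higher in EKO on the log2 scale, and all fitted differences below were taken after each library was scaled by its median ratio. Regions wider than 20 kb numbered 452 and held 31.1% to 33.2% of the called tags. Their median difference was -0.01 and none of them differed by more than 2-fold.

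No region passed the test between genotypes. The test was limma on log2(normalized tags + 1) over the 20770 regions listed in all 4 libraries, and a region was called where p after Benjamini-Hochberg correction was below 0.05 and the change exceeded 2-fold. It called 0 regions lower and 0 higher in EKO, which is 0% of the regions tested in each direction, with a smallest adjusted p of 1.00. At an unadjusted p below 0.05 there were 618 regions, 2.98% of those tested, 243 lower and 375 higher. No count test was run on these normalized values. The median difference was 0.01 on the log2 scale and 95.6% of regions lay within 2-fold. The median SE of 0.41 gave a 95% interval that reached 0.92 to either side, or 1.90-fold. That interval is for 1 region before correction over all regions, so it is not a limit of detection. More than 2-fold lower in EKO were 370 regions and more than 2-fold higher 534, and none of these was called. A smaller share of acetylated nuclei and less acetylation in each nucleus cannot be told apart in such pooled material.

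The spread between replicates was wider in WT than in EKO. Over the same regions the SD of the log2 difference was 0.83 between the WT replicates, 0.52 between the EKO replicates and 0.45 between the genotype means. The last is a difference of means of 2 libraries, which averaging narrows, so it cannot be set directly against the other two. More than 2-fold between replicates were 19.7% of regions in WT and 7.35% in EKO, and 4.35% of regions differed by more than 2-fold between the genotype means. Across regions, which are not independent, log2 values correlated at 0.90 between the WT replicates, 0.96 between the EKO replicates and 0.93 to 0.94 between libraries of different genotype. In 15.0% of regions both EKO libraries were above both WT libraries after scaling, and in 15.5% both were below.

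**Figure D2:**
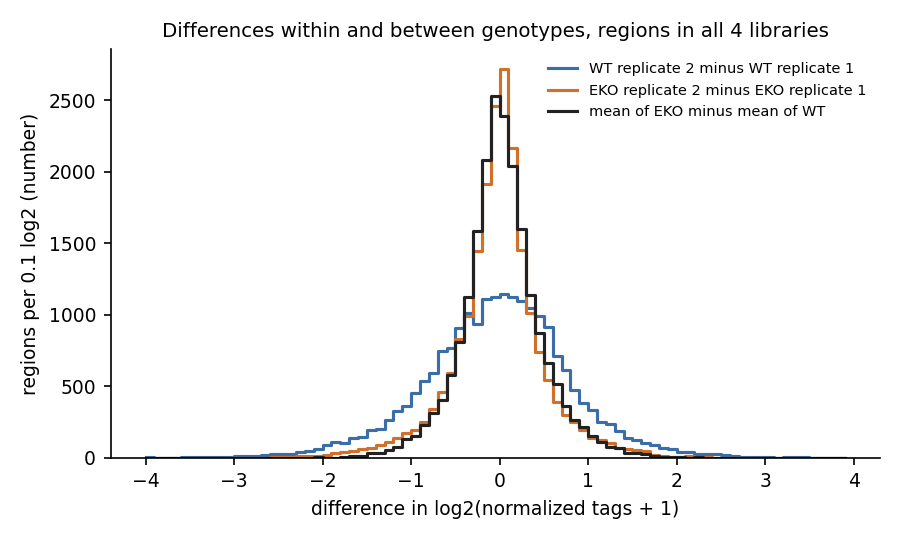
Histogram of log2 differences (horizontal axis) over the 20770 regions in all 4 libraries, as regions per 0.1 log2 (vertical axis), for the WT replicates (blue), the EKO replicates (orange) and the genotype means (black). The WT replicates spread most widely (SD 0.83), and the genotype means are centred at 0.01 with an SD of 0.45.

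The 2 WT libraries differed in a patterned way. WT replicate 2 was lower than WT replicate 1 near start sites, by a median of -0.29 on the log2 scale, and higher in gene bodies (0.14) and intergenic regions (0.22). It was also higher in regions with a mean of 1000 or more tags (0.38) and lower in those with 20 to 50 tags (-0.16). The EKO replicates differed by medians of -0.04 to 0.04 over the same classes. Between genotypes the medians of these classes lay between -0.02 and 0.03. Without WT replicate 1 the test called 150 regions lower and 515 higher, and without WT replicate 2 it called 140 lower and 448 higher. Of these, 2 regions were called lower and 21 higher both times. In these fits 1 WT library stood against 2 EKO libraries and was assumed to vary as the EKO pair does, and without EKO replicate 1 or EKO replicate 2 no region was called.

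The share of regions that differed by more than 2-fold was highest at 20 to 50 tags and lower on either side. It was 4.39% in the 1138 regions with a mean under 20 tags. In the 6292 regions with a mean of 20 to 50 tags 9.68% differed by this much between genotype means, against 2.77% of the 8590 regions with 50 to 200 tags, 0.164% of the 3660 regions with 200 to 1000 tags and 0.0917% of the 1090 regions with 1000 or more. The SD between the EKO replicates was 0.69 under 20 tags and 0.74, 0.42, 0.18 and 0.10 in the classes above it, so it too was highest at 20 to 50 tags. Regions within 1 kb of a start site differed less often by more than 2-fold (2.12% of 6967) than gene body regions (5.57% of 9499) and intergenic regions (5.27% of 4304), and this difference between classes was not tested. On chromosome X, 14 of 465 regions, or 3.01%, differed by more than 2-fold.

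Although no region was called, those with the smallest unadjusted p are given by the rule for named regions. The smallest p among higher regions belonged to an intergenic region 28.1 kb from the start of Tax1bp1, an autophagy adaptor gene (chr6:52683585-52687714), with 48.0, 45.4, 174 and 163 normalized tags, so the 4 libraries fell into separate ranges. Its difference was 1.64 (SE 0.33; limma, adjusted p = 1.00), and it was 1.53 without WT replicate 1 and 1.76 without WT replicate 2. A region over an exon of Oxr1, an oxidation resistance gene, at chr15:41794191-41797899, held 9.39, 11.2, 60.2 and 80.5, a difference of 2.46. An intergenic region far from any start, chr11:37909813-37913739, 676 kb from that of Tenm2, held 32.4, 21.6, 112 and 118, a difference of 1.89. A region over an exon of Cab39l held 76.2, 70.0, 197 and 213, a difference of 1.28. The regions named here and in the next paragraph were picked by p in the same libraries. Fits without 1 WT library share the EKO pair and take their spread from it, so their calls are no independent support.

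In the other direction an intronic region of Ulk4, chr9:121059691-121062829, held 72.0, 49.5, 12.5 and 15.7 normalized tags, a difference of -2.20 (SE 0.50; limma, adjusted p = 1.00). The region over the start of Eya1, a developmental transcriptional co-activator gene (chr1:14307311-14310562), held 134, 110, 43.9 and 54.0, a difference of -1.49. These 2 are the regions called lower with each WT library left out in turn. An exonic region of Spata13 (89.7, 47.7, 16.3 and 15.7) and 1 over exons of Kdm4b, a histone demethylase gene (366, 218, 140 and 181), passed both limits only without WT replicate 2. A region in an intron of Syn3, 89.9 kb from the start of Timp3 (215, 247, 117 and 130), passed both limits only without WT replicate 1. Divided by the length each library called, the differences of these regions were smaller, from -0.52 to 0.01 for the 5 lower ones and from 0.13 to 1.20 for the 4 higher ones.

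The acetylation over genes was described in windows of each protein-coding gene with 5 kb on either side. Levels below are normalized tags inside the window, with each called region apportioned by the share of its length that lay inside, and are given per kb of window where genes are compared. Of 21924 genes, 49.7% had called regions in all 4 libraries and 37.4% in none, and the median over all genes was 0.488 tags per kb. The OLIG2 label matched its markers: all 14 transcription factor genes of the lineage, all 24 genes of myelin and mature oligodendrocytes and all 16 genes of precursor cells were listed in every library. The median levels of these lists were 70.4, 89.2 and 6.97 tags per kb, against a 90th percentile over all genes of 11.2 and a 99th percentile of 76.3. The precursor median was thus below the 90th percentile, and genes listed in all 4 libraries had a median of 3.40. Another lineage list, of committed and newly formed oligodendrocytes, had 8 of 12 genes listed in every library and 2 in none, with a median of 5.56.

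Among the lineage transcription factors, Olig2 itself lay in 1 called region (chr16:91219410-91236235) and its window held 1347, 1086, 1575 and 1774 normalized tags. The EKO replicates were both above the WT replicates, with means of 1675 ± 141 (SD, n = 2) and 1216 ± 184. The log2 difference was 0.32 with a 95% interval of -0.10 to 0.74 (limma, adjusted p = 1.00). The window of Olig1, its neighbour in the genome and in function, held 1502, 1701, 1714 and 1954, a difference of 0.05. The window of Sox10, which activates myelin genes, had the highest level of the list, 167 tags per kb, and held 3216, 2271, 3844 and 4218, a difference of 0.43 (-0.05 to 0.91). The groups did not overlap as deposited, where the median gene window, with regions counted whole, was 0.16 higher in EKO on the log2 scale. Counted with whole regions the Sox10 difference was 1.03 and not called. Without WT replicate 1 it was 1.72 and called (limma, adjusted p = 0.00124), and without WT replicate 2 it was 0.35 and not called (adjusted p = 0.0805).

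The window of Zfp536, a zinc-finger gene, held the most tags of the list, 12109, 10829, 12436 and 12617 (-0.02). That of Myrf, the factor required for mature oligodendrocytes, held 4318, 4931, 5785 and 6175 (0.23), and that of Nkx2-2, which promotes differentiation of precursors, 2238, 2273, 2929 and 3056 (0.26). That of Sox8, a relative of Sox10, held 2187, 2477, 1987 and 2810 (-0.13), and before scaling the 2 EKO libraries lay on either side of WT. No gene of the list was called, where 0.0459% of all windows tested were called lower and 0.0459% higher when regions were counted whole, and the list's median of 0.11 stood beside a median of 0.01 over all genes.

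None of the 24 genes of myelin and mature oligodendrocytes was called. Mbp, the myelin basic protein gene, held 11144, 10795, 11480 and 12659 normalized tags in its window, a difference of -0.01 (-0.74 to 0.72). Ugt8a and Fa2h, enzyme genes of the galactolipids of myelin, held 7104, 7702, 8207 and 9663 (0.12) and 7362, 7261, 7819 and 8270 (-0.01). In both, EKO replicate 2 was highest before scaling. Mog held 2245, 2508, 2502 and 2712 (-0.01) and Cnp, an enzyme gene of uncompacted myelin, 3448, 3499, 3876 and 3824 (0.00). Pllp, the plasmolipin gene, had the highest level of the list, 195 tags per kb, with 5294, 5933, 6403 and 6798 (0.09). Differences in the list ran from -0.29 at Mal to 0.34 at Lpar1, with a median of 0.06.

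Precursor genes were lower in level than myelin genes, apart from Cspg4, the NG2 proteoglycan gene, at 65.5 tags per kb (2809, 2502, 2952 and 3483). Pdgfra, the growth factor receptor gene of precursors, held 371, 157, 338 and 415 at 5.73 tags per kb, with WT replicate 2 below the other 3 libraries. Tnr, an extracellular matrix gene, held 3083, 1763, 2517 and 2656, and Xylt1, a proteoglycan synthesis gene, 2457, 1397, 2667 and 3103 (0.49). In all 3 of these WT replicate 2 was lowest. The list's differences ran from -0.46 at Sox5 to 0.49, with a median of 0.06 and no call. Of 12 genes of committed and newly formed oligodendrocytes, 8 were listed in all libraries and 2, Bmp4 and Casr, in none. Itpr2, a calcium channel gene, held 2263, 2699, 2534 and 2776, and Fyn, a kinase gene, 2276, 2252, 2598 and 2649. Gpr17, a receptor gene of this stage, held 2040, 1912, 2175 and 1966, and Bcas1 held 1491, 1748, 2168 and 2232. The highest difference of this list was 0.51 at Mpzl1 (1235, 1325, 1859 and 2196; limma, adjusted p = 1.00). None was called.

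**Figure D3:**
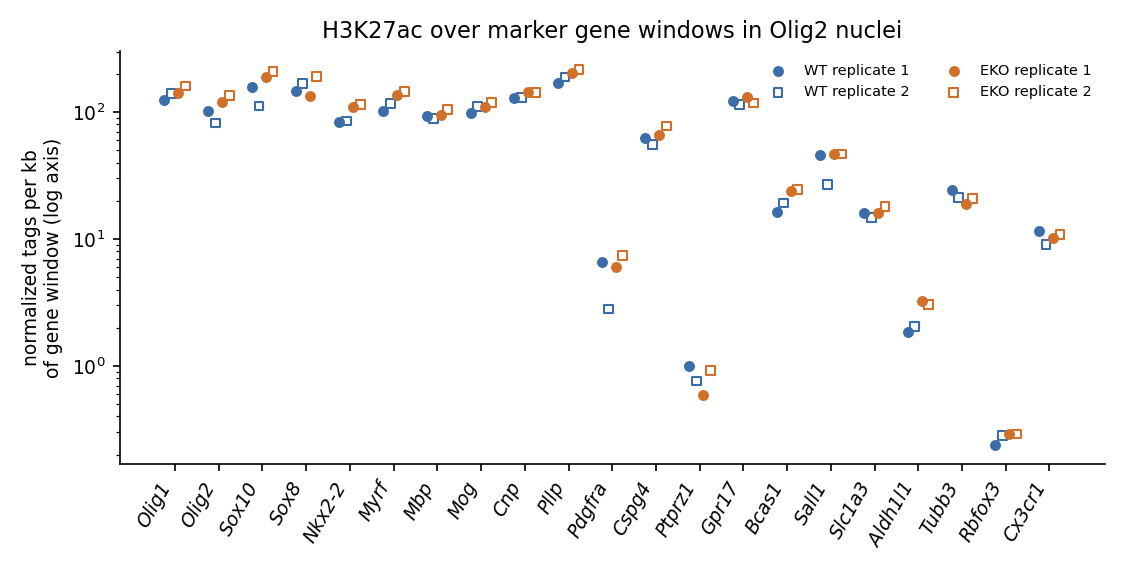
Normalized tags per kb of gene window (vertical log axis) for marker genes of the lineage and of other brain cells in each library, with WT in blue and EKO in orange, filled circles for replicate 1 and open squares for replicate 2. Oligodendrocyte genes such as Pllp (195 on average) stand far above Rbfox3 (0.275), and no gene shown differs between the colours past the test on apportioned tags.

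All 18 genes of cholesterol synthesis, a pathway on which myelin membrane depends, were listed in all libraries. Their median difference was -0.11 against 0.01 over all genes, and none was called. Srebf2, the regulator of the pathway, held 1937, 1383, 1774 and 1717 normalized tags (-0.05), Mvk 659, 685, 763 and 664 (-0.06) and Insig1 546, 337, 402 and 446 (-0.17). Before scaling, the WT replicates lay on either side of both EKO replicates at Srebf2 and Insig1. The list summed to 6107, 3896, 5220 and 4952. Msmo1, a sterol oxidase gene, was the only member with an unadjusted p below 0.05 when regions were counted whole (-0.77; adjusted p = 1.00, limma).

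Markers of neurons, microglia, border macrophages and mural and leptomeningeal cells were mostly unlisted, where 37.4% of all genes had no called region. Astrocyte genes, given below, were not: 0 of 15 were unlisted and 10 were listed in all libraries, where 49.7% of all genes were. Of 20 neuron genes 13 had no region in any library, among them Snap25, Slc17a7 and Gad2, and Rbfox3, which encodes NEUN, held 102, 122, 125 and 126 normalized tags at 0.275 tags per kb. Of 20 microglia genes 13 had none, among them Tmem119, Csf1r, Spi1, which encodes PU.1, and the 3 C1q genes. P2ry12 was listed in 1 library, at 10.4. The 3296, 2366, 3093 and 3245 tags summed over the microglia list came almost wholly from Sall1 and from the 178 kb window of Cx3cr1, whose highest region lay over an exon of the neighbouring gene Xirp1. Of 10 border macrophage genes 9 had none. Endothelial genes were unlisted for 5 of 10, mural and leptomeningeal genes for 8 of 12 and ependymal genes for 2 of 6, and 2 of each list were tested, with no call. Cspg4 is shared between the mural and precursor lists, and in the ependymal list Foxj1 held 1620, 1901, 1884 and 1900.

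Astrocyte genes had a median difference of 0.27, against 0.01 over all genes, and the members ran from -0.28 to 1.84. Of 15 genes 10 were listed in every library, and the list summed to 2677 and 2457 normalized tags in WT and 3053 and 3406 in EKO. The part of astrocyte nuclei in any other value was not tested. Gfap and Sox9 were listed in 1 library each, at 12.5 and 13.8. Slc1a3, a glutamate transporter gene also active in other glia, held 1393, 1279, 1387 and 1573. Slc7a10, an amino acid transporter gene, held 23.0, 32.7, 129 and 97.2, and Fgfr3, a growth factor receptor gene, 83.5, 68.1, 135 and 178. For both the groups did not overlap, and both genes were named after these values were seen. Over all regions tested, both EKO libraries lay above both WT libraries in 15.0% after scaling. The share of gene windows that separated in this way is not given here. The differences of Slc7a10 and Fgfr3 were 1.84 (95% interval 0.82 to 2.86) and 0.88 (0.22 to 1.54), and neither passed correction over all genes (limma, adjusted p = 1.00 for both).

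Counted whole for every window they touched, called regions gave 10 gene windows past the threshold among 10903 tested, 5 lower (0.0459%) and 5 higher (0.0459%). The lower windows were Plaur, Gpbar1, 9430097D07Rik, Atp5mpl and Clic3, and the higher ones Nhlrc4, Terb1, 9930012K11Rik, Cavin4 and Ppp1r35. Gpbar1, a bile acid receptor gene, counted 5410, 4894, 71.4 and 77.5 normalized tags (log2 difference -6.24, SE 0.19; limma, adjusted p = 3.91e-04). Inside its window the apportioned tags were 125, 73.2, 22.1 and 13.6, and the window held 0.501, 0.321, 0.611 and 0.369 kb of called region. The whole-region count thus took in regions of which less than 1 kb lay in the window.

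Cavin4, a caveolar protein gene of muscle, counted 1058, 730, 5197 and 5592 when regions were taken whole (2.47; adjusted p = 0.0140) and 928, 646, 878 and 1004 inside the window (0.13). Plaur, the urokinase receptor gene, counted 1763, 1593, 8.77 and 16.7 whole (-7.13; adjusted p = 0.00187) and 148, 86.4, 8.77 and 16.7 inside (-3.26; limma, adjusted p = 0.475). With tags apportioned, a choice made after these values were seen, no window was called, 282 had an unadjusted p below 0.05 and the smallest adjusted p was 0.0612. Leaving out a library moved the whole-region count to 79 without WT replicate 1, 42 without WT replicate 2 and 20 without EKO replicate 2.

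Sall1, whose microglial enhancer was deleted, was acetylated in oligodendrocyte nuclei of both genotypes. Its window held 1231, 720, 1258 and 1260 normalized tags, 975 ± 362 in WT and 1259 ± 1.39 in EKO (SD, n = 2), and WT replicate 2 was lowest. The difference was 0.27 on the log2 scale. With regions counted whole the values were 1272, 720, 1274 and 1260 and the difference was 0.26, with a 95% interval of -0.23 to 0.74 (limma, adjusted p = 1.00). A two-sided exact permutation test of the whole-region values after scaling of the libraries gave p = 0.333, the smallest that 2 against 2 libraries allow. Before scaling the groups overlapped, with WT replicate 1 (1272) above EKO replicate 2 (1260). The called length in the window went the other way, 17.9, 15.4, 16.6 and 13.1 kb (exact permutation p = 0.667). Without WT replicate 2 the difference was 0.05, and without WT replicate 1 it was 0.47. In the 4 kb around the start the tags were 446, 360, 530 and 421.

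Called regions upstream of Sall1 formed separate islands. The gene region itself, chr8:89033776-89046750, held 993, 539, 1064 and 1135 normalized tags. An intergenic region 95.8 to 102 kb upstream of the start, chr8:89139917-89145920, whose centre is printed above, held 797, 1091, 1281 and 1411. This was more than the gene region held in 3 of the 4 libraries, and its difference was 0.33 (SE 0.26; limma, adjusted p = 1.00). A second one 194 to 202 kb upstream, chr8:89237692-89245862, held 583, 530, 588 and 713 (0.03). Smaller regions 254 and 263 kb upstream held 69.9, 30.2, 35.1 and 55.9 and 95.0, 75.2, 147 and 134. No OLIG2 library of either genotype listed a region 300 to 400 kb upstream, and the 350 to 400 kb stretch held called tags in both PU.1 WT libraries (1166 and 7382).

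**Figure D4:**
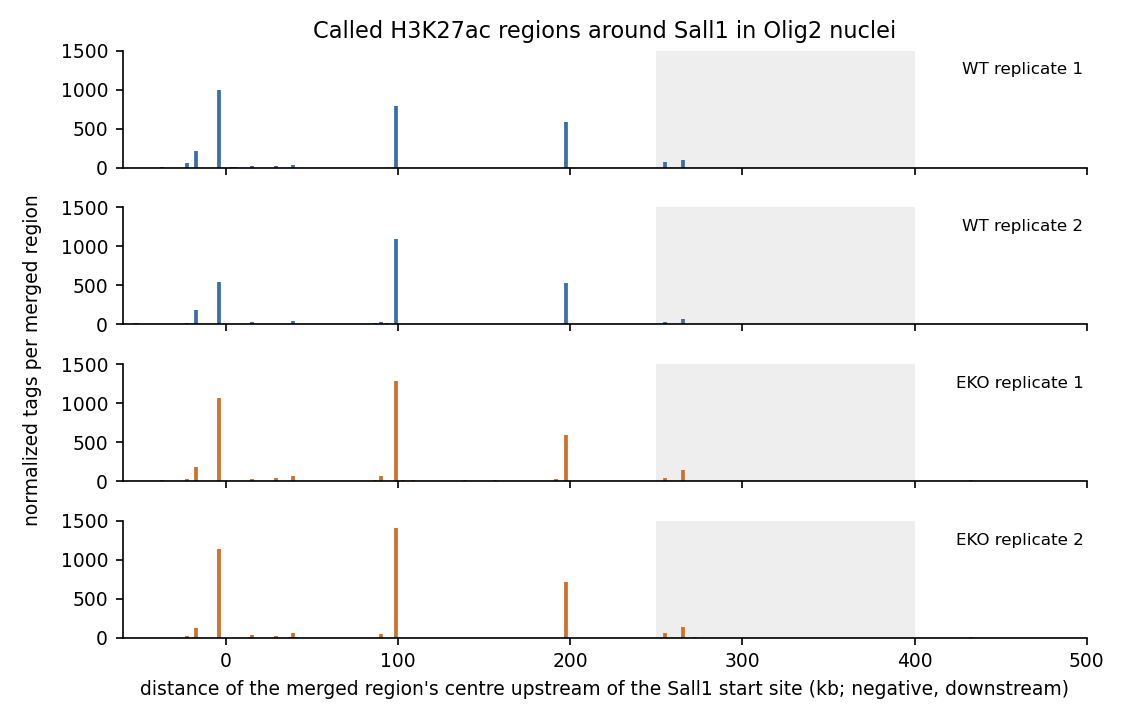
Normalized tags of each merged region (vertical axis) against the distance of its centre upstream of the Sall1 start (kb, horizontal axis), 1 panel per library, WT in blue and EKO in orange, with the stretch from 250 to 400 kb shaded. The 3 tallest regions stand at the gene, 99 kb and 198 kb in every panel, and the shaded stretch holds only 2 small regions near its gene-side end that were listed by all libraries.

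Over the stretch 250 to 400 kb upstream the OLIG2 libraries held 165, 110, 182 and 205 normalized tags. In PU.1 nuclei, which are microglial, the same stretch held 2107 and 12074 in the WT replicates and was unlisted in both EKO replicates, as was the Sall1 gene window. PU.1 WT replicate 1 had 8.04% of its tags in called regions, against 37.8% to 53.5% in the other PU.1 libraries. The genes on either side of Sall1 were also acetylated without a call: Cyld, a deubiquitinase gene, held 770, 478, 721 and 772 (0.15) and Tox3 held 79.3, 62.9, 81.4 and 157 (0.53). Of the other Sall genes, Sall2 held 74.1, 98.3, 105 and 77.6, Sall3 held 108, 36.9, 114 and 104, and Sall4 was listed in 1 library, at 10.0.

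The effect of the genotype in OLIG2 nuclei was set against that in PU.1 nuclei in a single limma fit over the 3677 regions listed in all 8 libraries. The effect differed at 80 regions, at 38 of them lower in OLIG2 (1.03%) and at 42 higher (1.14%), and at 77 of the 80 the effect in PU.1 nuclei was the larger in size. At these 80 regions the median size of the effect was 0.32 on the log2 scale in OLIG2 nuclei and 2.13 in PU.1 nuclei, and 72 of them lay within 2-fold in OLIG2 nuclei. Over all 3677 regions the median sizes were 0.18 and 0.32. Without PU.1 WT replicate 1 the fit ran on 6504 regions and called 213. On values as deposited it called 0, with 35 regions at an unadjusted p below 0.05. The median difference between the effects was then -0.78, and the cause of the lost calls was not tested.

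The region with the largest difference, over an exon of Eva1a at chr6:82041682-82049357, had scaled values of 11.7, 11.1, 36.7 and 25.5 tags in OLIG2 nuclei and 574, 563, 26.7 and 14.6 in PU.1 nuclei (limma, adjusted p = 0.00195). A domain over exons of Gab1, a signalling adaptor gene, chr8:80766660-80859398, held 8384, 13675, 10735 and 11281 in OLIG2 nuclei and 1298, 1475, 40.0 and 44.8 in PU.1 nuclei (adjusted p = 8.17e-04, limma). In the opposite direction the region over the starts of Gpr65, a proton-sensing receptor gene, and Galc, chr12:98257199-98274045, held 55.2, 47.5, 64.6 and 41.2 in OLIG2 nuclei and 49.2, 95.1, 1242 and 1169 in PU.1 nuclei. The OLIG2 values of both genotypes overlapped at Gab1 and Gpr65, while those of PU.1 nuclei did not.

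**Figure D5:**
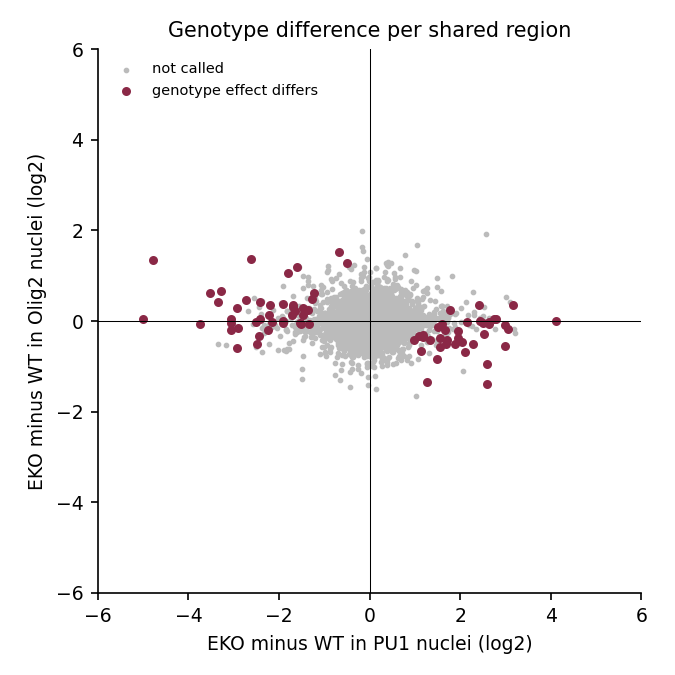
EKO minus WT on the log2 scale in OLIG2 nuclei (vertical axis) against PU.1 nuclei (horizontal axis) for 3677 regions listed in all 8 libraries, with the 80 regions whose effect differed in dark red. The red points spread to about 5 along the horizontal axis and lie mostly within 1 of zero on the vertical axis.

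Against NEUN nuclei, sorted for neurons, the effect of the genotype differed at none of 9814 regions listed in all 8 libraries (0% in each direction). The smallest adjusted p was 0.999 and 322 regions had an unadjusted p below 0.05 (limma), and scaling as deposited, quantile normalization within each cell type and the block on replicate number gave 0 as well. The median sizes of the effects were 0.21 in OLIG2 and 0.22 in NEUN nuclei, and the SD between the NEUN WT replicates was 0.73. A count of 0 does not show that the nuclei respond alike, since the median SE of a difference was 0.48.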

How the data were processed

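H3K27ac ChIP-seq was measured in sorted OLIG2, NEUN and PU.1 nuclei, 2 WT and 2 EKO libraries each. The authors mapped reads to mm10 with Bowtie2 and called regions per library against input with HOMER, with no versions in the submitters' processing notes. The deposited lists give a signal, tags per 10000000, and a fold ratio over input. Called regions were merged across libraries at 1 bp (Python 3.11.15, pandas 2.3.3). Libraries were scaled by their median ratio, and log2(tags + 1) of regions listed in every library was tested with limma 3.58.1 (with a mean-variance trend, R 4.3.3), with a call at an adjusted p below 0.05 and over 2-fold. The limma script was tested on simulated data. Genes were those of GENCODE vM21, with 5 kb flanks. If the step of the values is 1 tag, chi-square over its degrees of freedom was 22.2 between the WT replicates and 3.24 between the EKO replicates. Tags came from the lengths each library called, so differing boundaries enter these values beside counting noise. They also rise with depth, so 22.2 and 3.24 cannot be set directly against each other. Each library was kept as its own sample. Regions and genes were named by a fixed rule: the 10 highest regions, the 5 smallest p per direction, the 5 highest regions of 1 genotype, called windows, Sall1 with its neighbours, and the members of each leading list with the most tags. Other list members (such as Mog, Cnp, Pdgfra, Slc7a10, Fgfr3, Acvr1b) were named after their values were seen. The members and lists were chosen with earlier results of these data known. Some regions and genes that the rule names are not reported here.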

Additional observations from a re-analysis of the deposited data

Results flagged for a closer look

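The effect of the genotype differed between OLIG2 and PU.1 nuclei at 80 of 3677 regions in the fit of both cell types (limma, adjusted p below 0.05 and over 2-fold), and at 41 of them with the block on replicate number. The OLIG2 effect minus the PU.1 effect was 6.13 on the log2 scale at the Eva1a region, 5.04 at the Gab1 region and 4.13 at the region over the start of Itgb3, an integrin gene. It was -4.11 at the Gpr65 region, -3.96 at an intergenic region 59.2 kb from the start of Fos and -3.54 at the region over the start of Nsmce1. At the Fos-side region OLIG2 nuclei moved by -1.38 and PU.1 nuclei by 2.59.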

How the results depend on the processing

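The count of 0 called regions was also found as deposited, with quantile normalization, log2(tags + 10), no filter, tags per kb, a fold over input of at least 8, no fold limit and 1 called region per library. Leaving out each library in turn gave 0 to 665 called regions. Replicate numbers are shared by the genotypes, and deviations of same-numbered libraries correlated at 0.01 across regions. With 1 difference per genotype, this cannot show whether same-numbered libraries were prepared together. The main fits used no block on the number. With the replicate block 5 regions were called, all higher, 20 gene windows in place of 10 (10 lower, 10 higher), and 41 regions in place of 80 against PU.1 nuclei. For gene windows the count of 10 moved to 5 with no filter (5 lower, 0 higher), 5 per kb covered, 2 at a fold over input of at least 8, 0 with apportioned tags, and 14 to 79 when a library was left out. In a window of 2 kb on either side of the start 10 were called, none of them among the first 10, and there Atp5mpl was at 0.0079 and Ppp1r35 at -0.29. The share of WT regions found in EKO, 85.5%, was 77.2% where at least 50% of a merged region had to be covered, 62.7% at a fold over input of at least 8, and 57.1% to 90.9% with a library left out. The Sall1 difference of 0.26 ran from 0.05 to 0.47 with a library left out, was 0.55 in the start window and 0.40 as deposited, and turned to -0.16 for kb covered. Against PU.1 nuclei the count of 80 was 0 as deposited and 213 without PU.1 WT replicate 1. The cause of these changes was not tested, beyond fewer libraries or regions in the fits named. With 2 libraries a group, and no tags given for unlisted regions, small differences and many above 2-fold stay below detection.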

Other observations

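Of 14 immediate early genes 11 were listed in all libraries, with a median difference of -0.03 and no call. Arc, a synaptic plasticity gene, held 1619, 2005, 2047 and 2543 normalized tags at 152 tags per kb, Jund 917, 688, 797 and 859, and Fos 45.9, 27.2, 25.1 and 14.7, the last with a difference of -0.98 (limma, adjusted p = 1.00). Of 13 housekeeping genes 12 were listed in all libraries, with a median of 0.14, and Actb held 483, 454, 580 and 430.

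Of 28 genes of TGF-beta and BMP signalling, which shapes both microglia and oligodendrocyte precursors, 21 were listed in every library and 3, Tgfb1, Tgfbr2 and Tgif1, in none. The list's median was 0.12 and none was called. Smad7, an inhibitor of the pathway, held 1814, 1306, 1845 and 2129. Acvr1b, an activin receptor gene, held 60.5, 46.2, 17.5 and 13.7, a difference of -1.85 (95% interval -2.92 to -0.78; limma, adjusted p = 1.00). Of 9 genes that the study names as changed in EKO microglia, 5 were unlisted here, Apoe held 366, 752, 579 and 512 and Axl 252, 156, 266 and 203, with no call.

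OLIG2 regions near start sites were shared with other nuclei far more than distal ones. Of the 20770 regions listed in all OLIG2 libraries, each NEUN list overlapped 54.3% to 58.6%, with 90.1% to 92.6% of those within 1 kb of a start site and 36.3% to 41.5% of the rest. The 3 PU.1 lists other than WT replicate 1 overlapped 36.0% to 39.2%, with 73.8% to 76.5% near starts and 16.8% to 21.2% of the rest. PU.1 WT replicate 1 overlapped 17.9%.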
